A study of Brassica rapa subsp. pekinensis with 4 samples.

Results

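Alpha-expansins (EXPA) and xyloglucan endotransglucosylase/hydrolases (XTH) are wall-loosening and wall-remodelling proteins, and their genes were followed in the shoots of Chinese cabbage before and after vernalization. The genes were chosen by their closest Arabidopsis match, as given for each Bra gene in the deposited tables. Every Bra gene matched to one of 41 listed Arabidopsis loci, 19 EXPA and 22 XTH, was taken, whatever its expression. This gave 74 of the 36698 genes listed, 37 matched to EXPA and 37 matched to XTH loci. EXPA10, XTH17, XTH19 and XTH21 were the matches of no Bra gene. A Bra gene is called a copy of its Arabidopsis locus below, because the genome of Brassica rapa often holds several relatives of a single Arabidopsis gene.

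Expansins are small secreted proteins that loosen the growing cell wall at acidic pH without cutting its polymers, and alpha-expansins are the group tied to acid growth in stems and leaves. XTH enzymes act on xyloglucan, the main hemicellulose that coats cellulose in the walls of dicots. They cut a xyloglucan chain and join the cut end to another chain, and a few of them hydrolyse it instead. Both families are large, and their members differ in the organ, the cell type and the hormone or stimulus to which they respond.

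RNA was sequenced from shoots of the early-bolting inbred line “4004” of Brassica rapa subsp. pekinensis, with 2 libraries per condition. The 0D Ver plants were sampled at 2 weeks of age from long days (16 h of light) at 23 °C and received no cold. The 35D Ver plants were 7 weeks old by their label and had been kept at 5 °C with 12 h of light for 35 days. Both conditions carried the same genotype, and no plants of the older age without cold were analysed here, so that cold, age and day length cannot be told apart in any difference given. The growth label places the cold after 2 weeks at 23 °C, whereas the study's methods start it in younger seedlings. The libraries were made from whole shoots, in which fewer cells of a kind and less RNA per cell cannot be told apart.

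Summed read counts of the libraries ranged from 17221386 to 23428420. Replicates of a condition differed beyond sampling noise but far less than libraries of different conditions, with a chi-square per degree of freedom of 9.3 and 10.2 within conditions against 71.3 to 80.4 between them. The 11 copies of the green-shoot genes GAPA, LHCB1.3, PSAD1, RBCS1A and RCA summed to 534100 and 544300 normalized read counts under 0D Ver and to 655400 and 812600 under 35D Ver. Of these 7 rose and 1, the PSAD1 copy Bra036240, fell (log2 fold change -0.94, adjusted p = 0.00265). Those are 63.6% and 9.09%, where 20.1% and 20.5% of all tested genes rose and fell. Of 6 root marker loci 3 had copies, which summed to between 16.7 and 21.98 normalized read counts. The root endodermis gene CASP1 was at 0.912 to 2.44 in every library, close to the lowest deposited value of 1. The 1 tested root copy, Bra029194 of RBOHC, had 10.8 and 6.1 under 0D Ver and 11.9 and 15.5 under 35D Ver (log2 fold change 0.67, adjusted p = 0.177). The 10 copies of the flower organ genes AG, AP1, AP3 and PI summed to 73.2 and 82.4 under 0D Ver and to 86.6 and 103.5 under 35D Ver. Within that sum the 3 PI copies rose (log2 fold changes between 1.14 and 1.23, adjusted p between 0.0121 and 0.0191). They were low throughout, at 7.3 to 8.8 normalized read counts under 0D Ver and 17.3 to 23.8 under 35D Ver. The 1 tested AP3 copy was at -0.67 (Bra014822, adjusted p = 0.146). The part of these marker differences in the results below was not tested.

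Testing was limited to the 29691 genes that reached 10 counts in 2 or more libraries, after scaling for depth, and 15 counts over all libraries. Differences are given as log2 fold changes of 35D Ver over 0D Ver on the scale of log2(normalized read count + 1), with the standard error (SE) and an adjusted p from limma, adjusted over all 29691 genes. An adjusted p below 0.05 is called a rise or a fall here. A differentially expressed gene (DEG) in addition changed by a log2 of at least 1 and had a mean of at least 500 normalized read counts in the higher condition. The study's methods describe independent biological replicates and shoots from several plants, but do not state that the replicates were separate plantings. The p-values therefore measure the spread between these libraries, and that spread is shared across genes by limma. For a single gene, an exact two-sided permutation test of 2 against 2 libraries cannot go below p = 0.333.

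Most copies that changed fell after 35D Ver. Of the 74 copies, 60 were tested, and of these 10 rose, 25 fell and 25 did not pass the test. In percent, 58.3% of the tested copies passed, where 40.6% of all tested genes did, 20.1% upward and 20.5% downward. The DEG rule called 6 copies (10% of those tested, against 3.1% of all genes), 2 upward and 4 downward, where the shares over all genes were 1.34% and 1.75%. With a lower threshold of 50 on the mean, 5 copies rose and 15 fell at least 2-fold, against 4.1% and 5.56% of all genes in each direction and 9.66% in both. In 14 tested copies both libraries after cold exceeded both libraries before it, and in 32 both were lower, where this held for 36% and 37.1% of all genes.

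By family, most EXPA copies fell, while the XTH shares passing the adjusted p threshold were near those of all genes. The difference between the families was not tested. Among 28 tested EXPA copies 4 rose (14.3%), 17 fell (60.7%) and 7 did not pass, with a median log2 fold change of -0.68. Among 32 tested XTH copies 6 rose (18.8%), 8 fell (25%) and 18 did not pass, with a median of -0.08. Over all tested genes 20.1% rose and 20.5% fell, with a median of -0.01. At 2-fold with a mean of 50 or more, 3 XTH copies rose and 4, all of XTH22, fell, against 4.1% and 5.56% of all genes. For EXPA, 2 copies rose and 11 fell by that rule. DEGs were 6.25% of the tested XTH copies and 14.3% of the tested EXPA copies, against 3.1% of all genes. Summed over all copies, EXPA read counts were 11260 and 10560 under 0D Ver and 7328 and 7787 under 35D Ver, so that the conditions did not overlap and the mean was 1.44-fold lower after cold. Summed XTH read counts were 15030 and 15280 under 0D Ver and 16140 and 15690 under 35D Ver. They include both Bra002718 and Bra002720, whose values are equal in every library. The XTH sums did not overlap between conditions either and were higher after cold. Their means were only 1.05-fold apart, while single XTH copies rose and fell.

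These family counts depended in part on single libraries. The number of EXPA copies that rose was 2 instead of 4 without 0D Ver replicate 2 or without 35D Ver replicate 2. The number of XTH copies that fell was 4 without 0D Ver replicate 2 and 5 without 35D Ver replicate 2, instead of 8. The number of EXPA copies that fell stayed between 14 and 17, and the 4 EXPA copies called DEG downward remained 4 in number whichever library was left out. The XTH median lay between -0.15 and 0.02, the latter without 35D Ver replicate 1, so that its sign rested on that library.

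**Figure D1:**
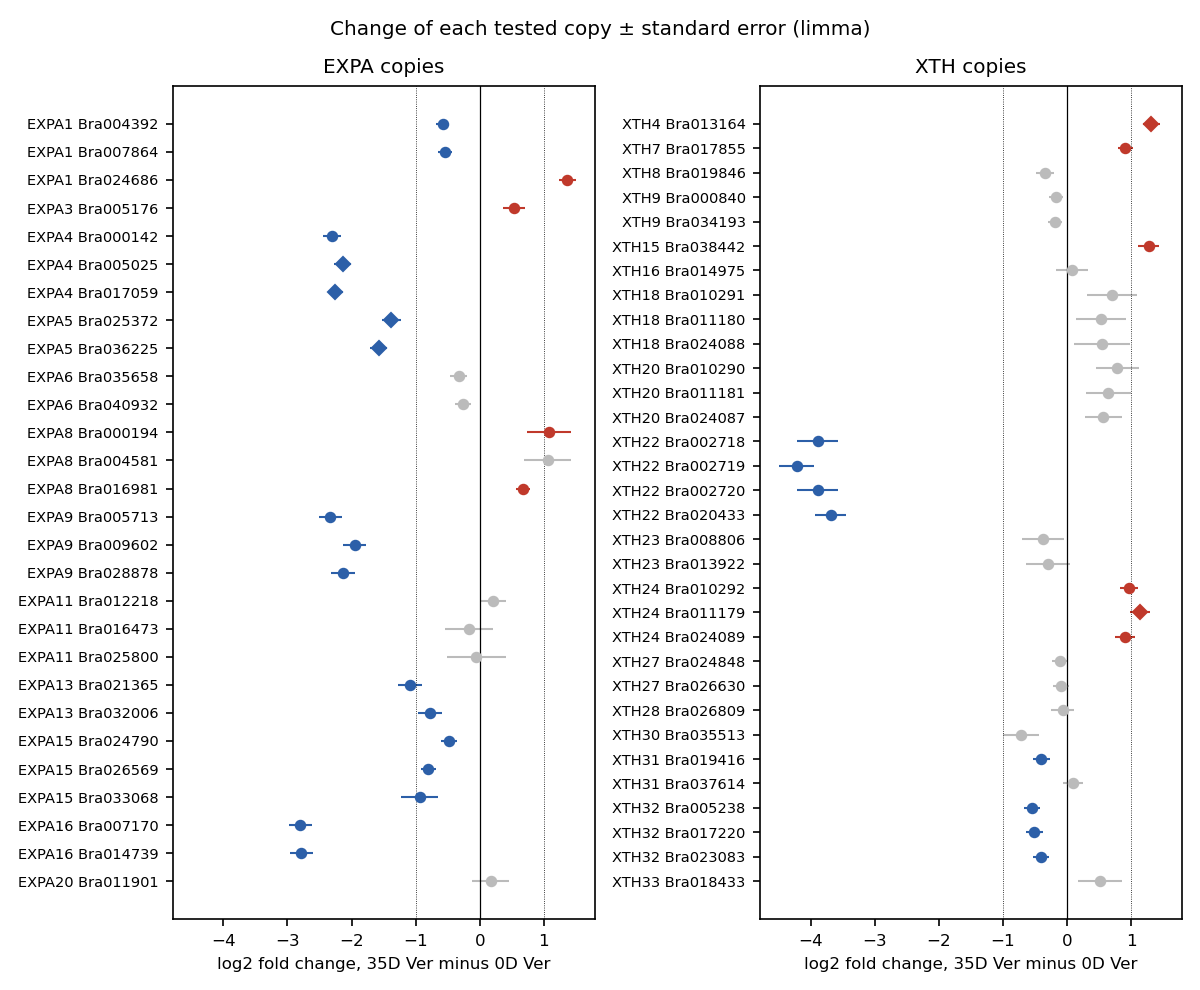
Log2 fold change (35D Ver minus 0D Ver) of each tested EXPA copy (left) and XTH copy (right), with bars of 1 SE from limma. Red points rose and blue points fell at an adjusted p below 0.05, grey points did not pass, diamonds are DEGs and dotted lines mark a log2 change of 1. The 4 XTH22 copies stand farthest left, between -4.21 and -3.69, and the EXPA copies farthest left are those of EXPA16, at -2.80 and -2.79.

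The copies of the expansin genes EXPA4, EXPA5, EXPA9 and EXPA16 all fell by more than 2-fold. The 10 copies of these loci fell by log2 values between -2.80 and -1.38. In Arabidopsis, EXPA5 is a brassinosteroid-responsive expansin of growing stems and leaves.

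All 3 EXPA4 (AT2G39700) copies fell by more than 2 on the log2 scale. Bra017059 had 1022 and 1185 normalized read counts under 0D Ver and 223.5 and 237.0 under 35D Ver. Bra005025 had 525.9 and 594.4 under 0D Ver and 129.1 and 123.1 under 35D Ver. Bra000142 had 353.2 and 385.7 under 0D Ver and 69.6 and 78.4 under 35D Ver. In each copy the lower 0D Ver library was far above the higher 35D Ver library. The log2 fold changes were -2.25 (SE 0.12, adjusted p = 6.28e-06), -2.14 (SE 0.127, adjusted p = 1.14e-05) and -2.31 (SE 0.144, adjusted p = 1.52e-05). Bra017059 and Bra005025 were DEGs, and Bra000142 stayed below the threshold of 500 read counts.

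The EXPA5 (AT3G29030) copies were the other 2 EXPA DEGs. Bra036225 went from 750.7 and 681 normalized read counts under 0D Ver to 263.8 and 217 under 35D Ver, a log2 fold change of -1.58 (SE 0.133, adjusted p = 7.13e-05). Bra025372 went from 602.5 and 540.7 to 248.2 and 193.3, a log2 fold change of -1.38 (SE 0.147, adjusted p = 0.000226). In both copies 35D Ver replicate 2 was the lowest library, and the conditions were well separated.

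EXPA16 (AT3G55500) had the steepest fall of the expansins, in both copies alike. Bra007170 had 259 and 329.5 normalized read counts under 0D Ver and 40.3 and 41.9 under 35D Ver, with a log2 fold change of -2.80 (SE 0.175, adjusted p = 1.52e-05). Bra014739 had 223.7 and 281.9 under 0D Ver and 33.9 and 37.4 under 35D Ver, with a log2 fold change of -2.79 (SE 0.182, adjusted p = 1.98e-05). The 35D Ver replicates of each copy lay close together, and the 0D Ver replicates were several times higher.

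The 3 copies of EXPA9 (AT5G02260) fell alike, and none had overlapping conditions. Bra005713 had 137.4 and 146.5 normalized read counts under 0D Ver and 27.5 and 27.4 under 35D Ver. Bra009602 had 137.4 and 136.7 before and 37.6 and 31.9 after cold, and Bra028878 had 130.5 and 133 before and 30.2 and 28.3 after. Their log2 fold changes were -2.33 (SE 0.183, adjusted p = 4.93e-05), -1.95 (SE 0.185, adjusted p = 0.000126) and -2.14 (SE 0.183, adjusted p = 7.88e-05).

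EXPA13 (AT3G03220) fell less. Its copy Bra021365 went from 130.5 and 105 normalized read counts to 55.9 and 52.9, a log2 fold change of -1.09 (SE 0.186, adjusted p = 0.00225). The other copy, Bra032006, went from 77.5 and 76.9 to 44.0 and 45.6, a log2 fold change of -0.77 (SE 0.185, adjusted p = 0.011). The conditions did not overlap in either copy, but the call of Bra032006 rested on having both 0D Ver libraries, since its adjusted p was 0.0505 without replicate 1 and 0.0531 without replicate 2.

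**Figure D2:**
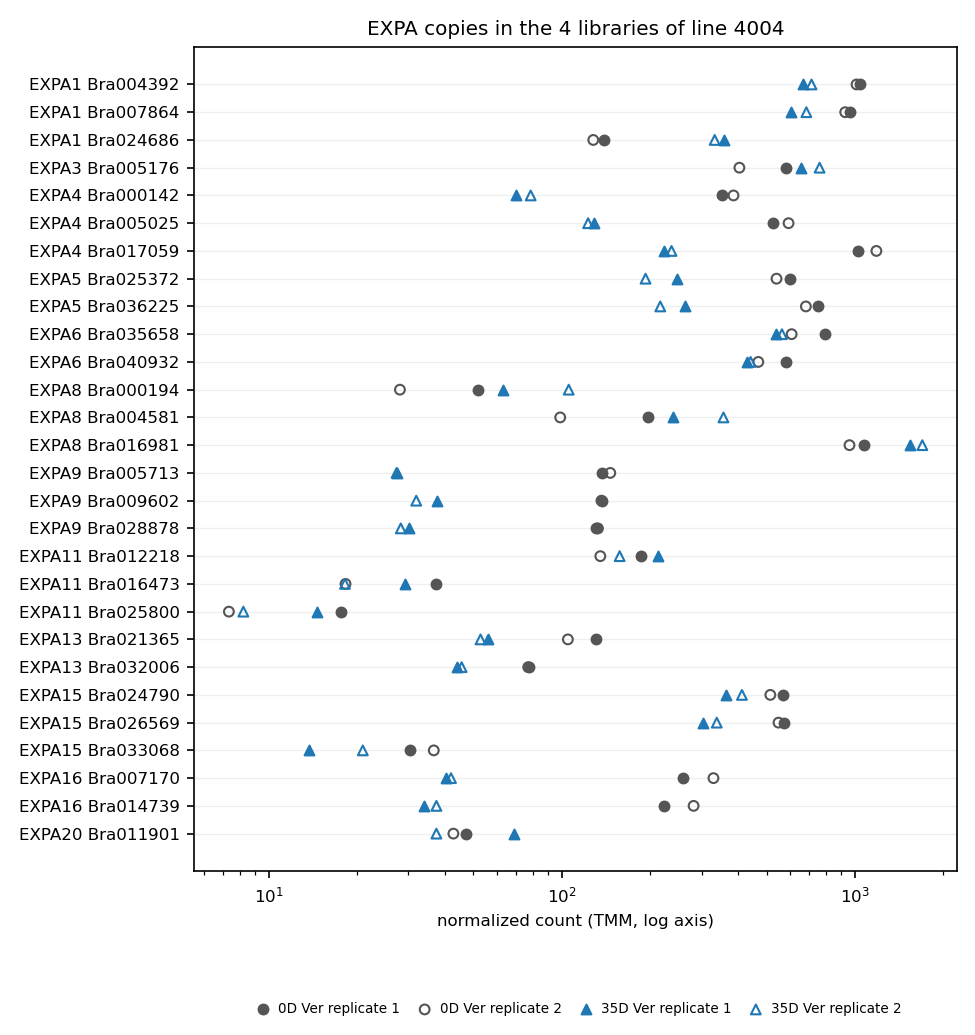
Normalized read count (log axis) of the 28 tested EXPA copies in each of the 4 libraries, with circles for 0D Ver and triangles for 35D Ver, filled for replicate 1 and open for replicate 2. In EXPA4, EXPA5, EXPA9 and EXPA16 both triangles lie far left of both circles, and in EXPA1 the copy Bra024686 is reversed with respect to the other 2 copies.

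EXPA1 was the 1 locus whose copies moved in opposite directions. EXPA1 (AT1G69530) is expressed in guard cells and growing leaves of Arabidopsis, where it takes part in stomatal movement. Its copies Bra004392 and Bra007864 fell and its copy Bra024686 rose. Bra004392 had 1042 and 1014 normalized read counts under 0D Ver and 665.9 and 712 under 35D Ver. Bra007864 had 960.6 and 927.6 before and 608.2 and 683.7 after cold. Bra024686 had 139.3 and 128.2 before and 358.1 and 332.7 after cold. The conditions were separated in all 3 copies, and the replicates of each condition lay within a narrow range. The log2 fold changes were -0.58 (SE 0.104, adjusted p = 0.00298), -0.55 (SE 0.11, adjusted p = 0.00491) and 1.36 (SE 0.131, adjusted p = 0.000135).

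Because reads of the same library are compared, the ratio between copies is free of library scaling. Bra004392 had 7.48 and 7.91 times the read count of Bra024686 in the 0D Ver libraries and 1.86 and 2.14 times in the 35D Ver libraries. For Bra007864 against Bra024686 these ratios were 6.89 and 7.24 before and 1.70 and 2.05 after cold. The difference between copies in log2 fold change, tested by limma over 19670 copy pairs of all loci, was -1.94 (SE 0.0912, adjusted p = 0.00384) and -1.91 (SE 0.111, adjusted p = 0.00483). With 1 library fewer under 0D Ver the adjusted p missed the threshold, at 0.0527 and 0.0601 without replicate 1 and at 0.0558 and 0.0655 without replicate 2. Summed over its copies, EXPA1 fell by 0.31 on the log2 scale (SE 0.101, adjusted p = 0.0383).

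Those were the only called differences among the 44 pairs of tested copies at 19 member loci. A pair was called at an adjusted p below 0.05 and a difference of at least 1, which held for 2 member pairs and for 7.43% of all pairs. Without the size threshold, 4 member pairs passed, against 20% of all pairs. The other 2 were small: the EXPA15 copies Bra024790 and Bra026569 differed by 0.32 (SE 0.0584) and the XTH24 copies Bra011179 and Bra024089 by 0.24 (SE 0.034). The median absolute difference between copies was 0.17 for the member pairs and 0.20 for all pairs, and the largest outside EXPA1 was 0.53, between the XTH22 copies Bra002719 and Bra020433.

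**Figure D3:**
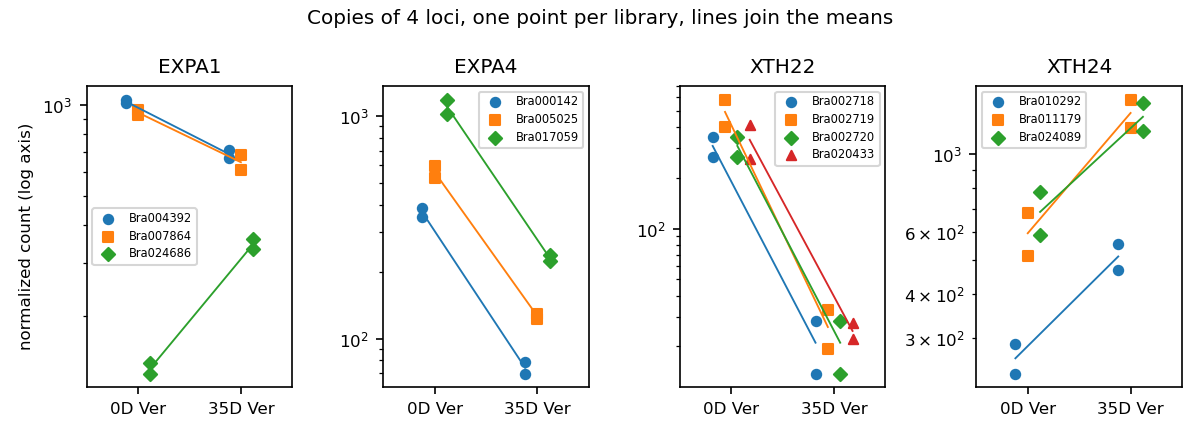
Normalized read count (log axis) of the tested copies of EXPA1, EXPA4, XTH22 and XTH24 under 0D Ver and 35D Ver, with 1 point per library and lines joining the means. The copies of EXPA4, XTH22 and XTH24 run nearly parallel, while in EXPA1 the lines of Bra004392 and Bra007864 descend and that of Bra024686 ascends.

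EXPA8 was the other expansin locus with more than 1 copy in which a copy rose. Of the EXPA8 (AT2G40610) copies, Bra016981 had 1072 and 959.3 normalized read counts under 0D Ver and 1538 and 1700 under 35D Ver, a log2 fold change of 0.67 (SE 0.112, adjusted p = 0.00204). The low copy Bra000194 had 52.0 and 28.1 before and 63.2 and 105.7 after cold, a log2 fold change of 1.08 (SE 0.339, adjusted p = 0.0359). Bra004581 had 197.2 and 98.9 before and 240 and 356.4 after cold, and its log2 fold change of 1.06 (SE 0.365, adjusted p = 0.0682) did not pass. Its value ranged from 0.57 without 0D Ver replicate 2 to 1.54 without 0D Ver replicate 1, where it passed (adjusted p = 0.00315). The replicates of Bra000194 and Bra004581 were far apart, and in both of them 0D Ver replicate 2 was the lowest and 35D Ver replicate 2 the highest library. Without 0D Ver replicate 2 the adjusted p of Bra000194 was 0.175, and without 35D Ver replicate 2 it was 0.165.

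The remaining expansins, named here after their values were seen, changed by less than 2-fold or were hardly detected. The 1 EXPA3 (AT2G37640) copy, Bra005176, had 584.8 and 404 normalized read counts before and 654.9 and 758.5 after cold (log2 fold change 0.54, adjusted p = 0.0407). That call was lost without 0D Ver replicate 2 (adjusted p = 0.216), 35D Ver replicate 1 (0.0509) or 35D Ver replicate 2 (0.171). The 3 EXPA15 copies fell by log2 values between -0.93 and -0.48, with an adjusted p of 0.0316 for the largest fall, in Bra033068. The smallest adjusted p among them was 0.000988, in Bra026569 (log2 fold change -0.81). The log2 fold change of Bra026569 stayed between -0.87 and -0.70 whichever library was left out. Bra024790 lost its call without 0D Ver replicate 1 (adjusted p = 0.0742) or 35D Ver replicate 1 (0.0814), and Bra033068 without 0D Ver replicate 1 (0.0659), 0D Ver replicate 2 (0.158) or 35D Ver replicate 1 (0.175). The copies of EXPA6 (2 copies), EXPA11 (3) and EXPA20 (1) did not pass. EXPA7 and EXPA18, which in Arabidopsis mark root hair cells, EXPA17, which acts in lateral root emergence, and EXPA2, EXPA12 and EXPA14 had 9 copies in all and none was tested.

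XTH22 had the largest change of all members. XTH22 (AT5G57560) is the touch gene TCH4, whose Arabidopsis transcript responds within a short time to touch, temperature shifts, auxin and brassinosteroid. All 4 of its tested copies fell more than 10-fold, and the fifth, Bra020432, was too low to be tested. Bra002719 had 581.9 and 402.8 normalized read counts under 0D Ver and 19.2 and 32.8 under 35D Ver. Bra020433 had 414.1 and 258.7 before and 21.98 and 27.4 after cold. Bra002718 and Bra002720 had the same deposited value in each of the 4 libraries, which were 351.3 and 267.3 before and 13.7 and 28.3 after cold once normalized.

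In every tested XTH22 copy 0D Ver replicate 1 was the highest and 35D Ver replicate 1 the lowest library, and the conditions were far apart. Bra002719 was 18.9-fold lower after cold (log2 fold change -4.21, SE 0.273, adjusted p = 2.78e-05), the 75th largest decrease among the 29691 tested genes. Bra020433 was 13.6-fold lower (log2 fold change -3.69, SE 0.243, adjusted p = 2.20e-05), and Bra002718 and Bra002720 were 14.7-fold lower (log2 fold change -3.89, SE 0.318, adjusted p = 0.000104). The equal pair is 1 observation, and with it counted once 34 instead of 35 member copies passed. The table of all genes held 155 genes of at least 100 summed counts that shared all 4 values with another gene. No single copy reached a mean of 500 read counts and none was a DEG, but the XTH22 copies summed to 1694 and 1196 before and 70.0 and 118.9 after cold. This sum passed the DEG rule (log2 fold change -3.95, SE 0.273, adjusted p = 0.000142). It holds both copies of the equal pair, so any reads they share are counted again in it.

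XTH24, XTH4 and XTH15 moved the other way. XTH24 (AT4G30270) is the Arabidopsis MERI5 gene, first isolated from shoot meristems. Its copy Bra011179 was a DEG, with 512.2 and 679.8 normalized read counts before and 1429 and 1191 after cold (log2 fold change 1.14, SE 0.155, adjusted p = 0.000813). Bra024089 had 590.7 and 779.9 before and 1394 and 1161 after cold (log2 fold change 0.91, SE 0.154, adjusted p = 0.00236). Bra010292 had 237.5 and 288 before and 554.1 and 469.5 after cold (log2 fold change 0.96, SE 0.142, adjusted p = 0.00113). In all 3 copies the order of the 4 libraries was the same, with 0D Ver replicate 1 lowest and 35D Ver replicate 1 highest. Without 0D Ver replicate 1 Bra011179 still rose but was no DEG, since its log2 fold change was 0.93 (adjusted p = 0.00341).

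XTH4 (AT2G06850), an enzyme of expanding and vascular tissue in Arabidopsis, had a single copy that was the other XTH DEG. Bra013164 had 801.7 and 640.8 normalized read counts under 0D Ver and 1700 and 1871 under 35D Ver, a log2 fold change of 1.31 (SE 0.131, adjusted p = 0.00016). The single XTH15 (AT4G14130) copy, Bra038442, had 60.8 and 57.4 before and 133.7 and 155 after cold, a log2 fold change of 1.27 (SE 0.171, adjusted p = 0.000726). XTH15 is a shade- and brassinosteroid-responsive gene in Arabidopsis. Neither copy had overlapping conditions. The number of XTH copies called DEG upward was 4 instead of 2 without 0D Ver replicate 2 or without 35D Ver replicate 2, when the XTH24 copies Bra010292 and Bra024089 joined. It was 2 without 0D Ver replicate 1, but with the XTH7 copy Bra017855 (log2 fold change 1.02, adjusted p = 0.00128) in place of Bra011179.

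**Figure D4:**
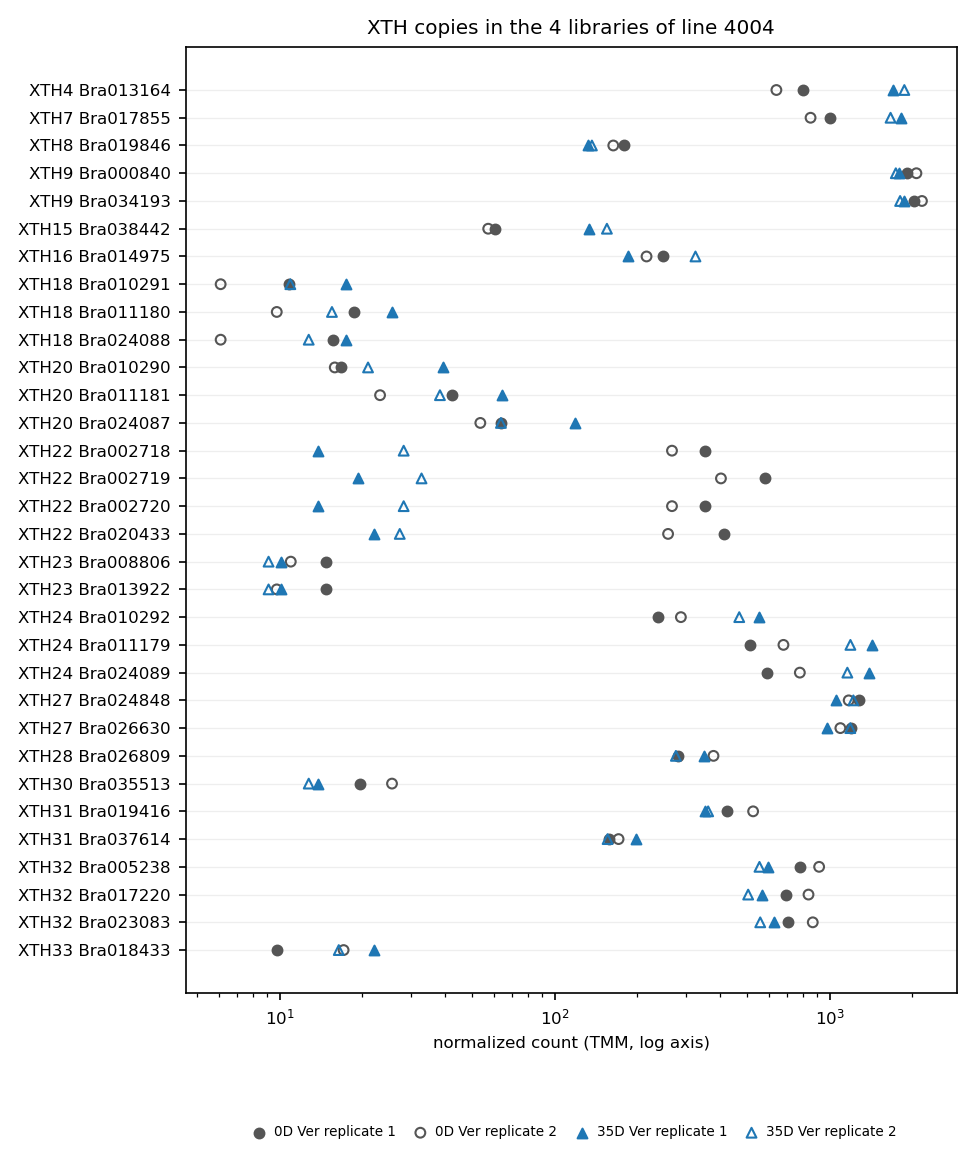
Normalized read count (log axis) of the 32 tested XTH copies in each of the 4 libraries, with circles for 0D Ver and triangles for 35D Ver, filled for replicate 1 and open for replicate 2. The XTH22 copies lie at 258.7 or more in both circles and at 32.8 or less in both triangles, while in XTH4, XTH7, XTH15 and XTH24 both triangles lie right of both circles.

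The other XTH loci, named here after their values were seen, changed by less than 2-fold. The single XTH7 (AT4G37800) copy, Bra017855, rose from 1007 and 853.1 to 1815 and 1667 normalized read counts (log2 fold change 0.91, SE 0.118, adjusted p = 0.000629). XTH31 and XTH32 belong to the XTH group in which xyloglucan hydrolase activity is found. The 3 XTH32 (AT2G36870) copies fell by log2 values between -0.55 and -0.41, and 1 XTH31 (AT3G44990) copy, Bra019416, fell by 0.41 on the log2 scale (adjusted p = 0.0389) while the other, Bra037614, was at 0.10 (adjusted p = 0.661). Without 0D Ver replicate 2 none of these 4 falls passed, with an adjusted p between 0.0551 and 0.245. Bra019416 also lost its call without 35D Ver replicate 1 (adjusted p = 0.122) or 35D Ver replicate 2 (0.0815), and the XTH32 copies Bra017220 (0.064) and Bra023083 (0.158) lost theirs without 35D Ver replicate 2.

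The copies of XTH9 and XTH27 did not pass the test. The XTH9 (AT4G03210) copies, whose Arabidopsis relative is expressed around the shoot apex, had 1915 and 2070 before and 1790 and 1742 after cold in Bra000840, and 2024 and 2168 before and 1871 and 1806 after cold in Bra034193. Both had lower 35D Ver libraries without overlap, but with log2 fold changes of -0.17 and -0.19 and an adjusted p of 0.209 and 0.174. The XTH27 (AT2G01850) copies, related to a gene of leaf veins, lay between 975.5 and 1281 in all libraries, with overlapping conditions. The copies of XTH8, XTH16, XTH18, XTH20, XTH23, XTH28, XTH30 and XTH33 did not pass either, with an adjusted p between 0.0752 and 0.814.

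A group of XTH genes bears consecutive gene numbers. XTH20, XTH18 and XTH24 copies are numbered Bra010290, Bra010291 and Bra010292, and the same loci also match the runs Bra011179 to Bra011181 and Bra024087 to Bra024089. In each of these runs the XTH24 copy rose, and the XTH18 and XTH20 copies had log2 fold changes between 0.53 and 0.79 that did not pass. In the 6 XTH18 and XTH20 copies 35D Ver replicate 1 was the highest library. Whether copies of different loci within a run changed differently was not tested. XTH5 and XTH25, with 2 copies each, and the fifth XTH22 copy were not tested, and the highest deposited value of the 14 untested EXPA and XTH copies was 9.

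A list of the other expansins held EXPB, EXLA and EXLB genes and EXPA loci outside the 19. Of its 10 tested genes 1 rose and 2 fell, which is 30% against 40.6% of all tested genes. The 2 that fell were DEGs, which is 20% against 3.1% of all genes and 14.3% of the tested EXPA copies. The falls were in both copies of the beta-expansin EXPB3, Bra024215 with 496.5 and 646.9 normalized read counts before and 165.8 and 144 after cold (log2 fold change -1.87, adjusted p = 6.81e-05) and Bra026272 with 594.6 and 738.4 before and 273.9 and 215.1 after (log2 fold change -1.45, adjusted p = 0.000255). The rise was in the EXPB2 copy Bra004890 (log2 fold change 1.24, adjusted p = 0.00394). Without 35D Ver replicate 2 the number that passed was 5 instead of 3. Of 5 tested genes from XTH loci outside the 22 listed, an XTH6 copy (log2 fold change -2.06, adjusted p = 0.00827) and an XTH11 copy (-2.50, adjusted p = 0.00072) fell, and without 0D Ver replicate 1, 0D Ver replicate 2 or 35D Ver replicate 2 the number was 1.

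Of the genes that build and trim xyloglucan, the substrate of the XTH enzymes, 20 copies were tested. Of these 8 fell (40%, against 20.5% of all genes) and 1 rose (5%, against 20.1%), with a median log2 fold change of -0.29. In either direction, the 45% that passed lay near the 40.6% of all genes. The DEG rule called 1 copy, of AXY8, which is 5% against 3.1% of all genes. The largest fall was in AXY8, a xyloglucan-trimming fucosidase, whose copy Bra011514 had 1075 and 855.6 normalized read counts before and 287.6 and 295.4 after cold (log2 fold change -1.72, adjusted p = 4.54e-05). Both copies of the xylosyltransferase gene XXT1 fell (Bra007696 with a log2 fold change of -1.12 and Bra014396 with -0.96), and so did the 3 copies of XXT5, with log2 fold changes between -0.64 and -0.47. The 3 copies of XXT2 did not pass. The rise was in the beta-galactosidase gene BGAL10 (Bra024238, log2 fold change 0.74, adjusted p = 0.0111). The number that passed was 6 instead of 9 without 0D Ver replicate 1 or without 35D Ver replicate 2.

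**Figure D5:**
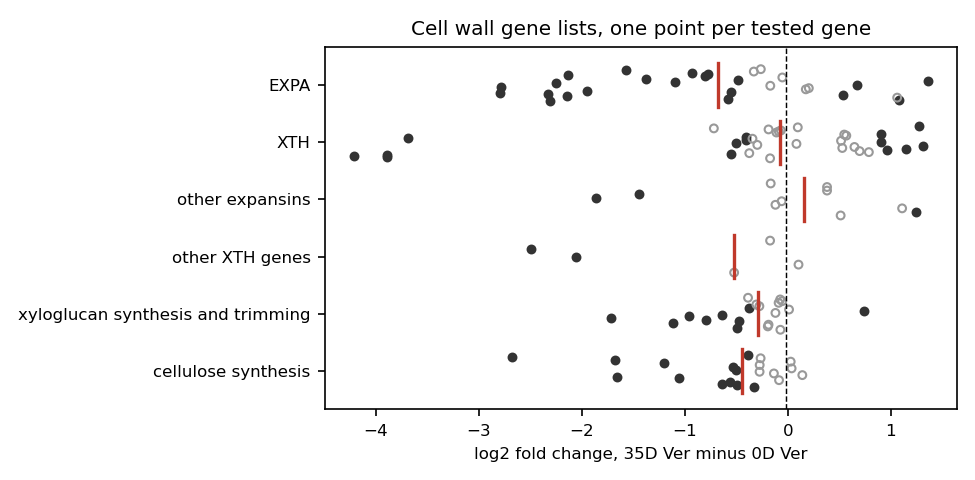
Log2 fold change (35D Ver minus 0D Ver) of each tested gene in the EXPA and XTH families and in 4 other cell wall lists. Filled points had an adjusted p below 0.05, open points did not, red bars mark the list medians and the dashed line the median of all tested genes (-0.01). The medians lie at -0.68 for EXPA, -0.08 for XTH, 0.16 for other expansins, -0.52 for other XTH genes, -0.29 for xyloglucan genes and -0.44 for cellulose genes.

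Other touch genes did not all follow XTH22. The calmodulin gene TCH1 (Bra025438) had 690.8 and 682.3 normalized read counts before and 877.5 and 823.2 after cold (log2 fold change 0.31, adjusted p = 0.0438). The calmodulin-like gene TCH2 (Bra025439) had 626 and 457.7 before and 262 and 131.3 after cold (log2 fold change -1.52, adjusted p = 0.0259). Neither passed without 0D Ver replicate 1, and 1 of them passed without any other single library. With all libraries TCH2 was a DEG, as were 3.1% of all tested genes. TCH3 was the match of no Bra gene.

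Joined by locus, with the read counts of all copies of an Arabidopsis gene added up, EXPA loci again had more falls than rises. Of all 16976 loci tested this way 19.9% rose and 20.4% fell, and 1.57% and 2.2% were DEGs in these directions. Of 13 EXPA loci 2 rose and 7 fell, with EXPA4 (log2 fold change -2.22, adjusted p = 8.10e-06), EXPA5 (-1.47, adjusted p = 0.000146) and EXPA16 (-2.80, adjusted p = 1.30e-05) called DEG. Of 17 XTH loci 4 rose and 2 fell, with XTH4 (1.33, adjusted p = 0.000207) and XTH24 (1.02, adjusted p = 0.00143) called DEG upward and XTH22 downward. The 4 rises and 2 falls among XTH loci were near or below the shares of all loci. XTH24 was no longer a DEG with scaling to total counts only (1.00), without 0D Ver replicate 1 (0.83) or without 35D Ver replicate 1 (0.91), although it passed the test in each case. Summing the copies was an alternative added after the data were seen, and it takes up reads that the mapping could have divided between near-identical copies. Where copies share the same reads, as the equal XTH22 pair could, the sum counts them again.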

How the data were processed

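The deposited tables list, for each Bra gene, a read count and an Arabidopsis match. Per the study's methods, the authors quality-trimmed the reads (SolexaQA), aligned them to coding sequences of the BRAD B. rapa annotation (Bowtie2) and counted reads per gene. How reads mapping to several genes were counted is not given in the sources used here. The deposited values are called read counts here, and the chi-square between libraries takes them as such. All of them are whole numbers of at least 1 with commas inside the digits, so they may not be unaltered counts. A count test was therefore not run. Instead, limma 3.58.1 (R 4.3.3) was fitted to log2(normalized count + 1), with condition as the only term, a mean-variance trend and robust moderation. Normalization was by trimmed mean of M-values, with trims of 0.3 and 0.05. Genes needed at least 10 scaled counts in at least 2 libraries and at least 15 in total. P-values were adjusted by Benjamini-Hochberg. The difference between copies was tested by limma on the log2 ratio of each pair. The analysis was also run on simulated data, whose spread between replicates was set in advance and not taken from these libraries. That run checks the calculation and does not measure the rate of false calls here. Figures were drawn with matplotlib 3.10.9.

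Members and lists were chosen with earlier results of these data known. Named with full values were DEGs, copies changed at least 2-fold with a mean of at least 50, copies of loci holding a called pair, and the other copies of these loci; any further gene is named after its values were seen. Same-numbered libraries did not deviate together (correlation -0.166), so numbers were not taken to pair them. Alternatives were other size factors, other filters, a pseudocount of 0.1, subtracting 1 from each value, other thresholds on the mean, the replicate block and leaving out each library. Gene lengths were not used, so read counts of different genes, and the ratios between copies, are not corrected for length. No sequence is shown, since no table used here pairs one with the Bra identifiers.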

Additional observations from a re-analysis of the deposited data

How the results depend on the processing

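The 35 copies that passed the main test and Bra004581 were followed under 8 other settings and with each of the 4 libraries left out. None of these 36 changed sign, while some changed their side of the adjusted p threshold. Since nearly all were chosen by passing that threshold, most could only lose their call. Among summed loci 6 were DEGs, and 5 with total-count scaling or without 35D Ver replicate 1. The mean threshold decided the DEG calls: with 50 in place of 500, or with none, 20 member copies were DEGs, and the numbers over all genes were 2868 and 4076 in place of 920. Without a filter on low values the median log2 fold changes were -0.44 (EXPA) and -0.15 (XTH) and 6 copy pairs were called. With 10 or more counts in every library the EXPA median was -0.78 and 1 other XTH gene passed. With scaling to total counts only, 1 touch gene passed. With the replicate block, 32 member copies passed, 6 were DEGs, 915 genes in all were DEGs and 1 touch gene passed, and Bra000194 (adjusted p = 0.0569), Bra019416 (0.0547) and Bra023083 (0.0647) lost their call. Since the correlation of same-numbered libraries was below 0, crossed numbers were tried after seeing the data: 37 member copies passed, 6 were DEGs and 1 touch gene passed. Over the 4 fits with 1 library left out, the number of passing genes ranged from 28 to 33 over all members, 2 to 5 for EXPA copies that rose, 14 to 17 for EXPA copies that fell, 6 to 8 for XTH copies that rose, 4 to 8 for XTH copies that fell, 3 to 5 for other expansins, 1 to 2 for other XTH genes, 6 to 9 for xyloglucan genes, 7 to 11 for cellulose genes and 0 to 1 for touch genes. DEGs ranged from 6 to 9 among members, 2 to 4 for XTH upward and 0 to 1 for XTH downward. The EXPA median ranged from -0.78 to -0.62, the XTH median from -0.15 to 0.019, called copy pairs from 0 to 2, and genes passing over the whole table from 8185 to 9534 in place of 12042. The cause of these shifts was not tested. Which of 2 differing replicates is the unusual one cannot be decided here, and copies with low read counts have the widest errors.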

Other observations

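Cellulose synthesis, the other main task of the growing wall, had 12 falls and no rise among 20 tested copies after 35D Ver. That is 60% and 0%, where 20.5% and 20.1% of all tested genes fell and rose by limma (0 rose at an unadjusted p under 0.05 as well). The median log2 fold change of the list was -0.44, and the number that fell was 7 without 0D Ver replicate 1 and 7 without 0D Ver replicate 2. The 3 copies of CESA3, a subunit of the primary wall synthase, fell with log2 fold changes between -0.54 and -0.50, for example Bra005845 from 11310 and 11210 to 8088 and 7875 normalized read counts. The CESA2 copy Bra011865 fell from 773.2 and 937.3 to 465.3 and 357.4 (log2 fold change -1.06, adjusted p = 0.0011). It was the only DEG of the list, which is 5% against 3.1% of all genes. The CESA5 copy Bra006036 (log2 fold change -0.64, adjusted p = 0.00612) and both KOR1 copies fell as well. The tested CESA1 and CESA6 copies, of the same complex as CESA3, did not pass, and the CESA6 copy Bra004813 was too low to be tested. The subunits of the secondary wall synthase, CESA4, CESA7 and CESA8, fell in all 5 copies. CESA8 copy Bra012578 went from 235.5 and 272.2 to 86.1 and 72.9 (log2 fold change -1.66, adjusted p = 0.000139), and CESA4 copy Bra033714 from 209 and 268.5 to 105.3 and 99.4 (log2 fold change -1.20, adjusted p = 0.000765). The conditions did not overlap in either copy. The 3 copies of COB, which encodes a protein needed for oriented growth, had log2 fold changes between 0.03 and 0.14 and did not pass.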
